A study of Mus musculus with 6 samples.

Results

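Kdm5c, Kdm5a, Kdm5b and Kdm1b encode demethylases of lysine 4 of histone H3 (H3K4). These 4 genes, taken by symbol from the 48795 Ensembl genes of the table, were followed in hippocampal polyadenylated RNA of mice in which Kdm5c and Kdm1a were both targeted for deletion in forebrain neurons. All 4 had enough reads to be tested. Double-knockout mice (dKO, 3 libraries) carried Kdm1a f/f, Kdm5c f/f and the CamKIIα-CreERT2 transgene, whose recombinase is made in principal neurons of the forebrain and acts only after tamoxifen. Wild-type mice (WT, 3 libraries) received tamoxifen as well, and the labels do not say whether they carried the recombinase. Tamoxifen was given at 2 to 3 months of age on a C57BL/6J background. The genes bear on 2 questions about the model. It was asked how much Kdm5c transcript is counted over the whole gene, whether or not the targeted exons are in it. It was also asked whether the transcripts of its relatives are higher where Kdm5c is lower.

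Enzymes of the KDM5 family use a JmjC domain, with iron and 2-oxoglutarate, to take methyl groups from tri- and dimethylated H3K4, the mark of active promoters. KDM1A and its relative KDM1B are flavin-dependent amine oxidases that act on the di- and monomethylated forms. Kdm5c is X-linked and has a Y-linked counterpart, Kdm5d, while Kdm5a, Kdm5b and Kdm1b are autosomal. Loss of human KDM5C causes X-linked intellectual disability, KDM5A and KDM5B were first known as a retinoblastoma protein partner and a breast cancer antigen, and KDM1B is known for its part in setting up maternal imprints in mouse oocytes.

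Total gene counts ran from 19342337 to 19637352 in dKO libraries and from 19309576 to 19700249 in WT libraries. All 6 libraries held Y-linked transcripts (3100 to 3303 counts over 4 Y-linked genes in dKO libraries, 3233 to 3404 in WT libraries) and at most 13 counts of Xist (2 to 13 in dKO libraries, 1 to 5 in WT libraries). This is the pattern of male mice, which have 1 X chromosome. The genotype f/f given for the X-linked Kdm5c would then stand for 1 floxed allele. Summed markers of excitatory neurons, the cells that make the recombinase, ran from 5780 to 6364 CPM (reads scaled to library size) in dKO libraries and from 6178 to 6601 CPM in WT libraries. Of these 4 markers 1 fell, against 1.05% of all genes tested, and the summed ranges of the groups overlapped. No marker of neurons, glia, vessels or choroid plexus was at 0. Whether each library is a different mouse is not stated in the labels, and every p given here reflects the spread between these 6 libraries, which may be technical.

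The floxed Kdm5c allele loses exons 11 and 12. In the principal transcript of GENCODE M21 (Kdm5c-203, with 26 exons) these lie at chrX:152253424-152253605 and chrX:152253699-152253861, plus strand, GRCm38. Both are wholly coding, 182 and 163 bases long, and together hold 115 whole codons, so the rest of the reading frame is kept when they are skipped. This holds if the study numbers exons as the annotation does. They are shown because they are the exons that the recombinase removes from Kdm5c, and because whole-gene counts cannot see their loss apart from the rest of the gene. Capitals mark the exon to be removed and lower case the 15 bases of exon 10 before it or of exon 13 after it. The last line is the joined exon 10 and exon 13 that the recombined allele would leave.
Kdm5c exon 11: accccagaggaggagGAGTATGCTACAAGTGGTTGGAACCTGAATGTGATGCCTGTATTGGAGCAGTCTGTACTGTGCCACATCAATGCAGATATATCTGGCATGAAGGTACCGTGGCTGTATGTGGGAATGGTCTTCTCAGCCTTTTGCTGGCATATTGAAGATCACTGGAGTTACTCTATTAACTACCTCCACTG
Kdm5c exon 12: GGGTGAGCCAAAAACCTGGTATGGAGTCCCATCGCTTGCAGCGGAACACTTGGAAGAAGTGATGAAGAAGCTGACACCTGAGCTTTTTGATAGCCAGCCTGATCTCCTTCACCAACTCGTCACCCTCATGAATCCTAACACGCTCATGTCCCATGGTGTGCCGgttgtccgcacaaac
Kdm5c exon 10 joined to exon 13: accccagaggaggaggttgtccgcacaaac

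The removed stretch belongs to the part of the gene that encodes the JmjC domain and is more alike between relatives than the coding sequence as a whole. Over the aligned coding bases Kdm5c matched Kdm5d at 78.0%, Kdm5a at 66.3% and Kdm5b at 66.7%. Over the aligned bases of exons 11 and 12 the match was 83.8% for Kdm5d (289 of 345 bases), 78.2% for Kdm5a (269 of 344) and 77.5% for Kdm5b (265 of 342). The 60 bases of the stretch on which the 4 genes are most alike, bases 133 to 192 counted from the start of exon 11, are given to show how close the relatives are at the site of the deletion. Capitals mark bases that differ from Kdm5c.
Kdm5c: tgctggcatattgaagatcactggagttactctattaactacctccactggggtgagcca
Kdm5d: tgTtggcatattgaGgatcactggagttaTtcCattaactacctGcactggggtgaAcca
Kdm5a: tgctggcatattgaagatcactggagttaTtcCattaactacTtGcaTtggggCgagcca
Kdm5b: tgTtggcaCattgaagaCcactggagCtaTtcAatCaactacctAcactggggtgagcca
Kdm5d and Kdm5a each differ from Kdm5c at 6 of these bases and Kdm5b at 8. Even so, 0 of the 6400 windows of 50 bases in the principal Kdm5c transcript occurred in a transcript of any other annotated gene, Kdm5d included. Windows shared with another gene were 0 of 8665 in Kdm5b, 202 of 10895 in Kdm5a, where the start overlaps the start of Ccdc77 on the opposite strand, and 456 of 4938 in Kdm1b, where the end overlaps the end of Dek. Kdm5d shared 351 of 7925 such windows with other genes, and none of 100 bases. No source used here gives the strand setting of the counting, and at the overlaps with Ccdc77 and Dek reads of the partner cannot be told from reads of Kdm5a or Kdm1b.

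**Figure D1:**
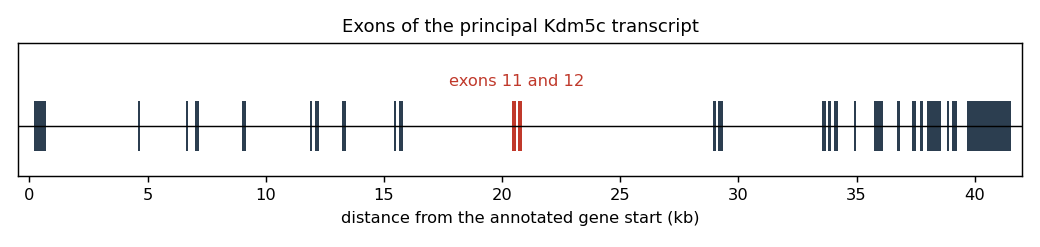
Exons of the principal Kdm5c transcript along the gene, as boxes to scale, with the distance from the annotated gene start in kilobases on the horizontal axis. Exons 11 and 12, the 345 bases named as deleted, are in red, and the other 24 exons in dark blue.

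Kdm5c transcripts were lower in every dKO library than in any WT library, by a small amount that did not pass the test over all genes. Kdm5c (ENSMUSG00000025332, chrX:152233020-152274535) had 1457, 1400 and 1288 reads in the dKO libraries and 1537, 1586 and 1484 reads in the WT libraries. Scaled for depth these were 74.3, 72.1 and 65.3 CPM in dKO and 78.4, 82.8 and 77.2 CPM in WT. The groups did not overlap, the highest dKO library lying below the lowest WT library. The log2 fold change of dKO over WT was -0.17 (SE 0.0640), which is a level 11.2% lower with a 95% interval of -19.3 to -2.29%. The unadjusted p of edgeR's quasi-likelihood test was 0.0186 and its Benjamini-Hochberg adjusted p was 0.143, above the threshold of 0.05. The dKO libraries varied by 6.62% (coefficient of variation) and the WT libraries by 3.74%, while read counting alone would give 2.69% and 2.55%. In dKO replicate 3, the lowest of the 6, Kdm5a was the lowest as well.

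By that test 0 of the 4 genes rose and 0 fell, against 6.95% of the 16861 genes tested that passed (5.9% rose and 1.05% fell). DESeq2 and limma-voom also passed 0 of the 4. At an unadjusted p under 0.05 in edgeR there were 2, Kdm5c and Kdm1b, both lower in dKO, against 20.2% of all tested genes at that level and 7.66% that were also lower in dKO. Kdm5c and Kdm1b were also the 2 genes of the 4 with every dKO library below every WT library, as were 11.2% of all genes tested, while 25.2% did not overlap in one direction or the other. On the X chromosome 588 genes were tested and 27 rose and 8 fell. Their median log2 fold change was -0.014, against -0.0073 over all tested genes, and 103 of them had a fold change at or below that of Kdm5c. The 345 deleted bases are 5.35% of the principal transcript.

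Beside the lower Kdm5c level, the summed markers of several other cell types were higher in every dKO library than in any WT library, although few single markers passed. Summed astrocyte markers (5 genes) ran from 1822 to 1842 CPM in dKO and from 1510 to 1698 CPM in WT, and summed oligodendrocyte markers (5 genes) from 5210 to 5861 CPM in dKO and from 4723 to 5069 CPM in WT. Summed microglial markers (5 genes) ran from 250.5 to 280.7 CPM in dKO and from 222.7 to 244.3 CPM in WT. Of these 15 marker genes 2 rose and 0 fell, against 5.9% of all genes that rose. Precursors of oligodendrocytes (2 markers, none called) summed to 91.9 to 96.1 CPM in dKO and 83.2 to 88.9 CPM in WT. Choroid plexus markers (3 genes, 1 rose) summed to 57.5 to 119.8 CPM in dKO and 28.2 to 43.1 CPM in WT. Interneuron markers (5 genes, none called) summed to 754 to 820.6 CPM in dKO and 797 to 838.5 CPM in WT, and vascular markers (4 genes, none called) to 155.7 to 166.4 CPM in dKO and 153.2 to 156.3 CPM in WT. The part of these markers in the Kdm5c level was not tested, and in bulk tissue fewer cells of a type and less RNA per cell cannot be told apart.

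**Figure D2:**
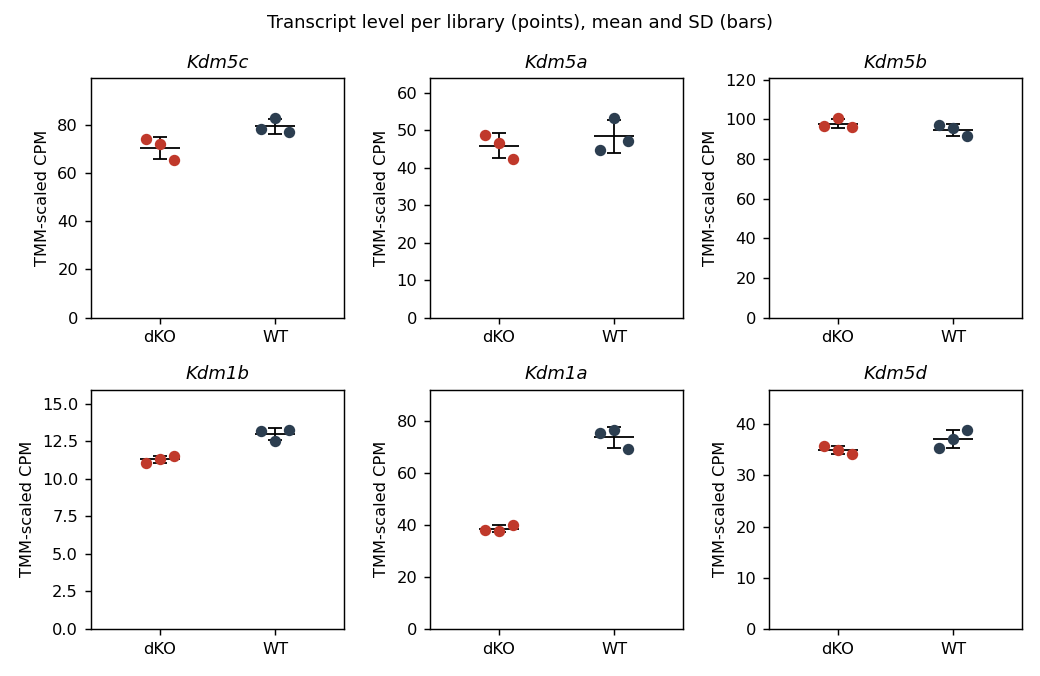
Level of each gene in TMM-scaled CPM (vertical axes, from 0) in the 3 dKO libraries on the left and the 3 WT libraries on the right of each panel. Points are libraries and bars are mean and SD; Kdm5c, Kdm1b and Kdm1a do not overlap between groups, and Kdm5a, Kdm5b and Kdm5d do.

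Kdm1a, the other gene targeted in these mice, had 38.0, 37.6 and 40.0 CPM in dKO and 75.2, 76.6 and 69.2 CPM in WT, and it fell (log2 fold change -0.93, SE 0.0651; edgeR adjusted p = 4.32e-07). The groups lay far apart. The Kdm1a allele loses exons 5 and 6, which by the annotation hold 200 bases, or 66 codons and 2 further bases, so the reading frame is not kept there as it is in Kdm5c. This holds if the study numbers exons as in the principal Kdm1a transcript (Kdm1a-203, with 19 exons). The part of the reading frame in the levels of the 2 genes was not tested. The ratio of Kdm5c to Kdm1a reads within a library does not depend on scaling. Its log2 was 0.97, 0.94 and 0.71 in dKO and 0.06, 0.11 and 0.16 in WT, so Kdm5c gained 0.76 on Kdm1a. The exact two-sided permutation p was 0.1, the smallest that 3 against 3 libraries can give.

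Kdm5a, which binds the retinoblastoma protein and belongs to a SIN3B-containing complex, was not higher in dKO. Kdm5a (ENSMUSG00000030180, chr6:120364124-120444574, plus strand) had 48.7, 46.6 and 42.3 CPM in dKO and 44.7, 53.1 and 47.1 CPM in WT. The ranges overlapped in part, with dKO replicate 3 below every WT library and WT replicate 2 above every dKO library. Its log2 fold change was -0.07 (SE 0.0794; edgeR adjusted p = 0.661), and the 95% interval of the difference, -15.6 to 6.94%, reaches up to a level 6.94% higher in dKO. It was the most variable of the 4 genes between libraries of a group, by 7.14% in dKO and 9.03% in WT, where counting alone would give 3.34% and 3.27%.

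Kdm5b, the relative with the most reads, gave the only positive fold change of the 4, and it too did not pass. Kdm5b (ENSMUSG00000042207, chr1:134560171-134635285, plus strand) had 96.8, 100.6 and 96.3 CPM in dKO and 97.4, 95.7 and 91.5 CPM in WT. Of the dKO libraries 2 were inside the WT range and 1 was above it. The log2 fold change was 0.05 (SE 0.0576; edgeR adjusted p = 0.722), with a 95% interval of -5.29 to 12.5%. Its spread between libraries, 2.4% in dKO and 3.15% in WT, was close to the 2.28% and 2.34% of counting.

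Kdm1b, the relative of Kdm1a, was lower in dKO by about as much as Kdm5c, although it is not targeted in these mice. Kdm1b (ENSMUSG00000038080, chr13:47043499-47085279, plus strand) had 217, 220 and 227 reads in dKO libraries and 259, 240 and 255 reads in WT libraries, or 11.1, 11.3 and 11.5 CPM in dKO and 13.2, 12.5 and 13.3 CPM in WT. The groups did not overlap. Its log2 fold change was -0.20 (SE 0.0935), a difference of -13.1% with a 95% interval from -24.4 to -0.0435%, and it did not pass (edgeR unadjusted p = 0.0494, adjusted p = 0.246). Counting so few reads gives by itself an error of 6.72% in dKO and 6.31% in WT, more than the 2.01% and 3.12% seen between libraries, so the libraries of each group lay closer together than their depth would lead to on average.

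Kdm5d, outside the 4 but the nearest relative of Kdm5c, had 35.8, 34.9 and 34.1 CPM in dKO and 35.3, 37.1 and 38.9 CPM in WT. The groups overlapped at their edge, and the log2 fold change was -0.09 (SE 0.0694; edgeR adjusted p = 0.532; 95% interval -15.1 to 4.41%).

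**Figure D3:**
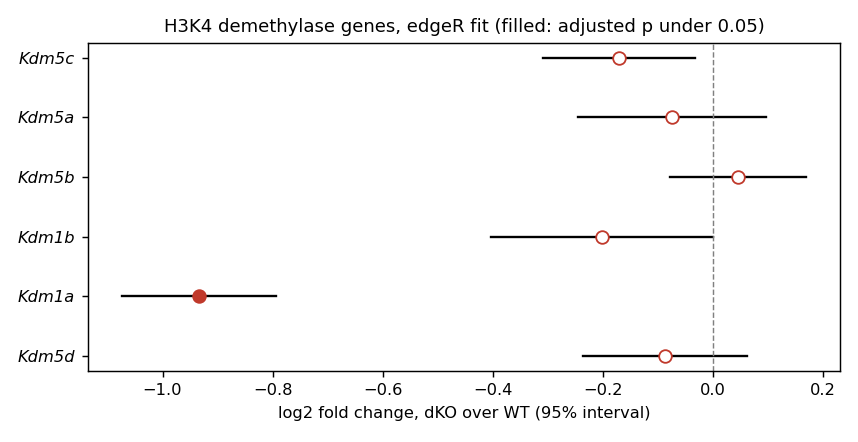
Log2 fold change of dKO over WT on the horizontal axis with its 95% interval as a line, from the edgeR fit over all genes. The filled point, Kdm1a, passed the adjusted threshold of 0.05; the intervals of Kdm5c and Kdm1b end just below 0, and those of Kdm5a, Kdm5b and Kdm5d cross it.

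Compared with its relatives inside each library, Kdm5c lost most ground to Kdm5b and none to Kdm1b. The log2 ratio of Kdm5c to Kdm5b reads was -0.38, -0.48 and -0.56 in dKO and -0.31, -0.21 and -0.25 in WT, a difference of -0.22 without overlap between groups. Against Kdm5a it was 0.61, 0.63 and 0.63 in dKO and 0.81, 0.64 and 0.71 in WT, a difference of -0.10, again without overlap. Against Kdm1b it was 2.75, 2.67 and 2.50 in dKO and 2.57, 2.72 and 2.54 in WT, and the difference of 0.03 lay well within the SD of 0.124 in dKO and 0.0987 in WT. Against Kdm5d the difference was -0.09, with the groups overlapping. The 5 ratios, the one to Kdm1a included, had exact permutation p-values of 0.1 for Kdm1a, Kdm5b and Kdm5a, 0.3 for Kdm5d and 0.9 for Kdm1b. Adjusted over the 5 they were 0.167, 0.375 and 0.9. This permutation test cannot give a p under 0.1 with 3 against 3 libraries. The 4 ratios other than that to Kdm1a were chosen after the levels had been seen.

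To compare levels between genes, CPM was divided by gene length in kilobases, taken as the union of all annotated exons (7110 bases for Kdm5c, 14158 for Kdm5a, 16555 for Kdm5b and 5495 for Kdm1b). Kdm5c then had the highest level, 9.93 ± 0.657 CPM per kilobase in dKO and 11.2 ± 0.418 in WT (mean ± SD, n = 3 each). Kdm5b followed with 5.91 ± 0.142 in dKO and 5.73 ± 0.180 in WT, then Kdm5a with 3.24 ± 0.231 in dKO and 3.41 ± 0.308 in WT, and Kdm1b was lowest with 2.06 ± 0.0413 in dKO and 2.37 ± 0.0738 in WT. No neighbours in this order overlapped within a group. The place of Kdm5b depends on which length is used. Its principal transcript is 8714 bases long, and by principal transcripts Kdm5b had 11.2 ± 0.269 CPM per kilobase in dKO and 10.9 ± 0.343 in WT, against 10.9 ± 0.725 in dKO and 12.3 ± 0.461 in WT for Kdm5c. By coding length Kdm5b was above Kdm5c in both groups, with 21.1 ± 0.506 in dKO and 20.5 ± 0.645 in WT for Kdm5b and 15.2 ± 1.00 in dKO and 17.1 ± 0.639 in WT for Kdm5c. Kdm5a and Kdm1b kept the lowest levels by all 3 lengths.

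Kdm5c made up a smaller part of the KDM5 transcripts in every dKO library. Its share of the summed reads per length of Kdm5a, Kdm5b and Kdm5c was 52.9%, 52.0% and 51.1% in dKO and 54.95%, 55.01% and 55.1% in WT. The WT libraries had an SD of 0.0698 percentage points, and all 3 dKO libraries were below them. The WT SD was 0.246 points by principal transcripts, 0.168 by coding length and 0.310 with Kdm5d in the sum. The very close WT values thus depend on the length used and do not measure the precision of the share. The difference was -3.01 percentage points, with an exact two-sided permutation p of 0.1, the smallest possible. The share of Kdm5b was 29.6%, 31.1% and 32.3% in dKO and 29.3%, 27.3% and 28.04% in WT. By this length it was higher in all 3 dKO libraries than in any WT library. By principal transcripts the groups were also apart, dKO replicate 1 having 41.02% and WT replicate 1 40.77%. By coding length they overlapped, with 44.97% in dKO replicate 1 and 45.04% in WT replicate 1. The Kdm5b level itself did not pass (edgeR adjusted p = 0.722). The share of Kdm5a was 17.4%, 16.9% and 16.6% in dKO and 15.7%, 17.7% and 16.9% in WT, with overlap. By principal transcripts the share of Kdm5c differed by -3.14 points, by coding length by -2.85 points, and with Kdm5d in the sum by -2.70 points.

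The summed level of the 3 genes was lower on average in dKO, a difference that was not tested. It was 19.7, 19.5 and 18.0 CPM per kilobase in dKO and 20.05, 21.2 and 19.7 in WT, with means of 19.1 ± 0.95 in dKO and 20.3 ± 0.767 in WT (SD, n = 3 each). The groups overlapped slightly. The mean difference of -1.24 CPM per kilobase is close to that of Kdm5c alone, -1.25, since Kdm5b added 0.184 and Kdm5a took away 0.171. The difference of the sum was -0.69 without dKO replicate 3 and -0.81 without WT replicate 2, so a large part of its size comes from those libraries.

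**Figure D4:**
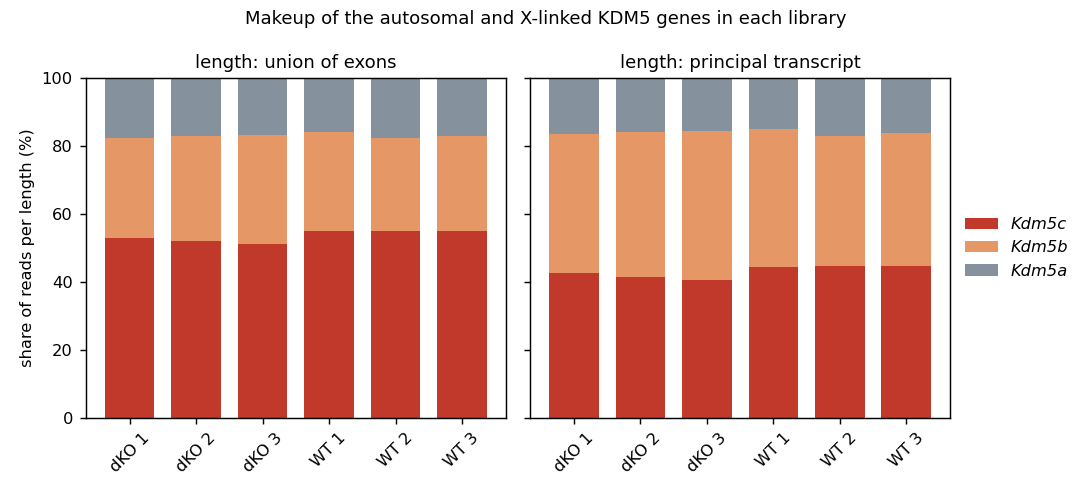
Share of Kdm5c, Kdm5b and Kdm5a in their summed reads per length, in percent, for each dKO library (left) and WT library (right), with the union of exons as length in the left panel and the principal transcript in the right panel. The Kdm5c share ends lower in the 3 dKO libraries in both panels (51.1 to 52.9% against 54.95 to 55.1% by union of exons).

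Among partner proteins of these enzymes, the transcripts of a repressor and a deacetylase rose and the others did not pass. Of 22 listed partners of the KDM5 proteins and KDM1B, all tested, 2 rose and 0 fell. That is 9.09% against 6.95% of all genes, which is near the background, and their median log2 fold change was 0.00. Rest, a repressor of neuronal genes found in complexes with KDM5C, had 14.2, 13.8 and 13.8 CPM in dKO and 6.42, 6.84 and 5.47 CPM in WT, a difference that passed with a log2 fold change of 1.15 (SE 0.113; edgeR adjusted p = 1.17e-05). Hdac1, a histone deacetylase shared by many corepressor complexes, had 15.0, 14.8 and 14.7 CPM in dKO and 9.63, 10.6 and 10.2 CPM in WT (log2 fold change 0.55, SE 0.0942; edgeR adjusted p = 0.00212). Every dKO library was above every WT library for both. The scaffold Sin3a had 41.9 ± 1.53 CPM in dKO and 40.4 ± 3.14 CPM in WT. Glyr1, the nucleosome-binding cofactor of KDM1B, had 220.3 ± 6.89 CPM in dKO and 235.6 ± 5.04 CPM in WT (SD, n = 3 each), and neither passed.

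Among the enzymes that place the mark none passed, and among the other JmjC proteins 2 did. Of 18 tested H3K4 methyltransferases and core subunits (19 listed) 0 passed in edgeR, DESeq2 or limma-voom. In edgeR 2 of the 18 had an unadjusted p under 0.05, against 20.2% of all genes, and the median log2 fold change was -0.06. The pair were Cxxc1, a CpG-binding subunit of the SETD1 complexes, with 52.4 ± 0.708 CPM in dKO and 59.4 ± 3.46 CPM in WT, and Prdm9, the methyltransferase of meiotic recombination hotspots, with 2.79 ± 0.351 CPM in dKO and 3.71 ± 0.528 CPM in WT (SD, n = 3 each). Of 17 tested JmjC proteins outside the KDM5 family (18 listed) 1 rose and 1 fell, a share of 11.8% against 6.95% of all genes, and the median log2 fold change was -0.01. Kdm4b, which acts on H3K9, had 120.0, 127.9 and 128.4 CPM in dKO and 103.4, 103.5 and 108.3 CPM in WT. Phf8, X-linked like Kdm5c and acting on H3K9 and H4K20, had 35.4, 33.9 and 33.6 CPM in dKO and 40.8, 43.7 and 40.5 CPM in WT. Both passed (edgeR adjusted p = 0.0160 and 0.0204), and both missed the threshold without dKO replicate 2 (0.0887 and 0.0891) or dKO replicate 3 (0.0889 and 0.123). Kdm4b also missed it without WT replicate 1 (0.0545), and Phf8 without WT replicate 2 (0.0521).

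**Figure D5:**
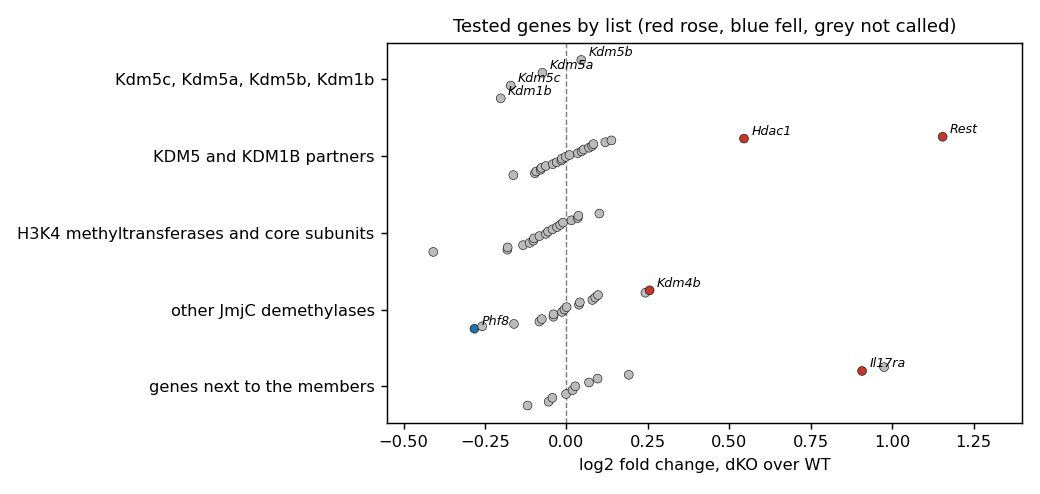
Log2 fold change of dKO over WT (horizontal axis) of each tested gene, 1 point a gene, grouped by list. Genes that passed the edgeR test are red (rose: Hdac1, Rest, Kdm4b and Il17ra) or blue (fell: Phf8), and all 4 demethylases are grey; the germline genes are not plotted.

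KDM5C is known in mouse as a repressor of germline genes in the brain. Kdm1a is targeted in the same mice, with no group that lost a single gene. The part of either gene in the levels below was not tested. Of 6 listed genes, 3 had enough reads to be tested. Zar1, an oocyte factor, had 80, 86 and 72 reads in dKO libraries and 3, 0 and 1 in WT libraries, a ratio of 59.6 with a 95% counting interval of 23.0 to 220.4 that covers counting error only. Every dKO library was far above every WT library. Dazl, an RNA-binding protein of germ cells, had 3.98, 3.401 and 3.85 CPM in dKO and 3.72, 3.24 and 3.85 CPM in WT, so the groups overlapped (log2 fold change 0.06, SE 0.157; edgeR adjusted p = 0.887). Ddx4, a germ cell RNA helicase, had 4.44, 4.84 and 4.62 CPM in dKO and 5.61, 4.86 and 7.13 CPM in WT (log2 fold change -0.34, SE 0.159; edgeR adjusted p = 0.250). Its groups were barely apart, at 4.844 CPM (94 reads) in dKO replicate 2 and 4.858 CPM (93 reads) in WT replicate 2. Of all genes tested, 11.2% had every dKO library below every WT library. D1Pas1, a helicase of spermatogenesis, had 2 reads over the dKO libraries and 3 over the WT libraries. Cyct, the testis cytochrome c, and Stra8, the trigger of meiosis, had 0 reads in all 6 libraries, which allows up to 0.0514 CPM in dKO and 0.0513 CPM in WT (3 counts over the libraries of a group, counting error only). Zar1, near 0 in WT, passed the filter on low counts only through its dKO libraries, so its test is not given, and the 3 tested genes do not stand for all 6.

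Of the genes next to or overlapping the demethylase genes, 11 were tested and 1 rose, a share of 9.09% against 6.95% of all genes, which is near the background. Kdm5c lies 7784 bases from Iqsec2, a guanine nucleotide exchange factor of synapses, and 20293 bases from Kantr, a transcript named for its place beside Kdm5c. Iqsec2 had 273.2 ± 8.14 CPM in dKO and 268.2 ± 12.5 CPM in WT, and Kantr had 5.77 ± 0.401 CPM in dKO and 5.06 ± 0.391 CPM in WT (SD, n = 3 each), and neither passed (edgeR adjusted p = 0.844 and 0.474). Il17ra, the receptor subunit for interleukin 17A and the nearest tested gene after Kdm5a at a distance of 18673 bases, had 31.0, 27.9 and 30.0 CPM in dKO and 15.2, 17.5 and 14.7 CPM in WT. It rose (log2 fold change 0.91, SE 0.0907; edgeR adjusted p = 1.44e-05) beside a Kdm5a level that overlapped between the groups. Ccdc77, Tpmt and Dek, which overlap Kdm5a or Kdm1b on the opposite strand, had log2 fold changes of -0.05, -0.04 and 0.02 and did not pass.

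The genes with the profiles most like those of the 4 demethylases were found by their distance over libraries. Likeness was taken as the root mean square difference between log2(CPM + 0.5) profiles over the 6 libraries, each centred on its own mean. Nearest to Kdm5c were Slc7a8 (0.0262), Usp36 (0.0269) and Slc5a6 (0.0273), and nearest to Kdm5a were Smug1 (0.0225), Csnk1g1 (0.0228) and Helz (0.0249). Nearest to Kdm5b were Pou3f3 (0.00871), Tceal3 (0.0153) and D10Wsu102e (0.0160), and nearest to Kdm1b were Dmtn (0.0115), Ing1 (0.0137) and Wdr45 (0.0172). Of these 12 genes only Dmtn passed the test between groups. The distances were taken over 14087 protein-coding genes, and since the 4 genes vary little, a small distance also picks out genes that vary little. Within a distance of 0.1 lay 2779 genes for Kdm5c, 2511 for Kdm5a, 5117 for Kdm5b and 2985 for Kdm1b. The genes named are thus the nearest of very many with a similar profile.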

How the data were processed

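The authors deposited raw read counts per Ensembl gene, 1 column per library. The submitters' processing notes name cutadapt 1.18, HISAT2, HTSeq 0.11.1 and the build GRCm38 (mm10). No source used here gives the annotation release or strand setting. Genes were named from GENCODE M21 (360 of 48795 IDs unmatched), which also gave coordinates, lengths and transcript sequences. Genes were filtered with filterByExpr (minimum count 10, minimum total 15), leaving 16861, scaled with TMM and compared between groups by the quasi-likelihood test of edgeR (no covariate; Benjamini-Hochberg adjusted p under 0.05 over all genes tested). Intervals are 95%. The test was checked on simulated data. Software was R 4.3.3, edgeR 4.0.16, limma 3.58.1 and DESeq2 1.42.0. Genes and lists were chosen with earlier results of these data known. Named genes are those called in each list (in a list without calls, the 2 of lowest p) and Rest, Sin3a and Glyr1. Of the neighbours Iqsec2, Kantr, Ccdc77, Tpmt and Dek, and of the germline list all genes, were named outside this rule after their values were seen. Alternatives tried were DESeq2 and limma-voom, scaling by RLE or by library size, dropping the filter or asking for 1 CPM in 3 libraries, blocking on replicate number, other gene lengths, and leaving out each library.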

Additional observations from a re-analysis of the deposited data

How the results depend on the processing

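Under DESeq2, limma-voom, both other scalings, both other filters and a replicate block, the 4 demethylases kept their direction and stayed above an adjusted p of 0.05. Log2 fold changes ran from -0.17 to -0.15 for Kdm5c (adjusted p 0.140 to 0.210), from -0.08 to -0.05 for Kdm5a, from 0.04 to 0.07 for Kdm5b and from -0.21 to -0.18 for Kdm1b. Leaving out each library gave -0.21 to -0.12 for Kdm5c (adjusted p 0.0991 to 0.517), -0.13 to -0.0008 for Kdm5a, 0.02 to 0.06 for Kdm5b and -0.23 to -0.19 for Kdm1b. The replicate block gave -0.17 for Kdm5c (adjusted p 0.146). Libraries share only a number across groups: deviations of same-numbered libraries correlated at -0.06 to -0.02, and 0 of 3 dKO libraries correlated best with their own number. The gain of Kdm5c on Kdm1a was 0.71 to 0.84 on leaving out a library, and 0.76 within replicate pairs. The exact permutation p within pairs was 0.25, the smallest that 3 pairs can give. The Kdm5c share differed by -3.48 to -2.55 points without 1 library and the summed level by -1.57 to -0.69 CPM per kilobase (the alternatives for the sum were chosen after seeing the data). Genes called over the whole table were 1172, and 724 to 1424 on leaving out a library; those that fell were 177, 279 with no filter on low counts, and 48 (without dKO replicate 3) to 323 (without WT replicate 3) on leaving out a library. Of the other JmjC demethylases 0 to 2 passed, and of the genes next to the demethylases 1 to 2, on leaving out a library. With no filter 2 of the genes next to the demethylases passed, B4galnt3 joining Il17ra (edgeR adjusted p = 0.0388; 0.0732 with the filter, 0.0461 without dKO replicate 2). Among the partners Mga passed only without WT replicate 2 (0.0335, against 0.414 with all libraries). The cause of these shifts was not tested. Depth limits Kdm1b most, at 217 to 259 reads per library.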
